A study of Mus musculus with 9 samples.

Results

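The ERM proteins ezrin, radixin and moesin tie the plasma membrane to the actin cortex, and CD43 and CD44 are among the membrane proteins whose cytoplasmic tails they hold. The transcripts described here are those of the 3 ERM genes Ezr, Rdx and Msn, of their relative merlin (Nf2), of the PDZ adaptor NHERF1 (Slc9a3r1) and of Cd44. They were chosen by gene symbol as cytoskeletal partners of CD43, and all 6 were among the 42454 gene names counted. All 6 also passed the filter on low counts, which kept 18243 names.

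The study compared 5 tumours grown from MC38 cells with a knockout of CD43 (CD43-KO) with 4 tumours grown from vector-carrying MC38 cells (Vec). MC38 is a mouse colorectal carcinoma line. All 9 tumours grew in C57BL/6J mice and were harvested at day 21, and RNA of whole tumour tissue was sequenced. Only the implanted cells carried the knockout, so host leukocytes in both groups could still express CD43, and the labels do not say whether the knockout line was 1 clone. The labels give the genotype of the Vec tumours as WT, and they state neither an age or sex of the mice nor a batch. They list each tumour as a separate numbered sample, and p-values measure the spread between these tumours.

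An ERM protein holds a membrane protein with its amino-terminal FERM domain and filamentous actin with its carboxy-terminal end. The ends bind each other in the closed, inactive form, and phosphorylation of a conserved threonine near the carboxy terminus helps to keep the protein open. In migrating leukocytes, ERM proteins carry CD43 and CD44 to the rear of the cell. Merlin shares the FERM domain but acts as a tumour suppressor upstream of the Hippo pathway, and NHERF1 links ERM proteins to ion transporters and receptors.

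The carboxy-terminal coding ends are shown because this is the actin-binding part that the 3 ERM genes share, and because closely related sequences could in principle share reads. The sequences are the last 90 coding bases of the longest coding transcript, without the stop codon, from GENCODE M21 on GRCm38. They lie in 1 exon each, at chr17:6739306-6739395 on the minus strand for Ezr, at chr9:52086387-52086476 on the plus strand for Rdx and at chrX:96166542-96166631 on the plus strand for Msn. Capitals mark the 58 of 90 positions that are identical in all 3.
Ezr: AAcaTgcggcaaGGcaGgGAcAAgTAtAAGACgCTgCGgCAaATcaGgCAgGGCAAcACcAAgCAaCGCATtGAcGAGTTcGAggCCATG
Rdx: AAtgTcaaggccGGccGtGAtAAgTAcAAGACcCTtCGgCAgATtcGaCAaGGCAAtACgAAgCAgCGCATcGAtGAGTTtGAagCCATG
Msn: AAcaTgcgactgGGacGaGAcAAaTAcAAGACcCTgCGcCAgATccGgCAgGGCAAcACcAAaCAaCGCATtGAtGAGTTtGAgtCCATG

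Over the whole coding sequence, the 3 genes shared no stretch as long as 50 bases. Aligned coding bases were 73.8% identical between Ezr and Msn, 72% between Rdx and Msn and 70% between Ezr and Rdx, and merlin shared between 61.6% and 63.7% with each of them. The longest identical run between any of these pairs was 32 bases, between Ezr and Msn. No stretch of 50 bases of a coding transcript of Rdx, Msn or Cd44 occurred in a transcript of another annotated gene. For Ezr, Nf2 and Slc9a3r1 0.193%, 0.177% and 0.8% of all windows of 50 bases did. Exons of other genes on the opposite strand covered 0.122% of the exon bases of Ezr (the gene Sytl3) and 2.15% of those of Msn (a small RNA gene, Gm24718), and none of the other members. Whether counting used strand is not stated in the labels.

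The members lie on 5 chromosomes of GRCm38. Ezr spans chr17:6738041-6782784, Rdx chr9:52047173-52088735 and Msn chrX:96096042-96168552. Nf2 spans chr11:4765845-4849536, Slc9a3r1 chr11:115163341-115181181 and Cd44 chr2:102811141-102901665. They had between 1736 counts (Nf2 in Vec replicate 4) and 73383 counts (Msn in CD43-KO replicate 1) in a library.

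Total counts ranged from 44814061 to 62194418 in CD43-KO libraries and from 60751738 to 72114385 in Vec libraries. CD43-KO replicate 3 had the lowest depth and the most extreme score on principal component 1, which held 34.9% of the variance. In it, 6 skeletal muscle genes summed to 973 CPM (a count scaled to the size of its library). The sum was 61.5 to 102 CPM in the remaining CD43-KO tumours and 78.9 to 95.2 CPM in Vec tumours. Its 5 fat cell genes summed to 364 CPM, with a maximum of 36.5 CPM among the remaining CD43-KO tumours and 46.6 CPM among Vec tumours. The sum of 17 leukocyte genes was 896, 1102, 1497, 507 and 599 CPM in CD43-KO replicates 1 to 5, against 508 to 634 CPM in Vec tumours. All 15 leukocyte genes that could be tested had a log2 fold change above 0. Of these 15, edgeR called 0 after adjustment, and 5 had an unadjusted p under 0.05, where 15.4% of all names did. DESeq2 called 2, where it called 3.66% of all genes it tested. Of the leukocyte genes, Ms4a1 was at 0 in Vec replicate 1. Markers of epithelium other than Cdh1 were almost absent from these tumours of a carcinoma line. Cdh1 averaged 11.5 CPM in CD43-KO and 10.5 CPM in Vec tumours. Epcam averaged 0.518 CPM in CD43-KO and 0.654 CPM in Vec tumours, Krt8 and Krt18 were at most 0.104 CPM on average, and Cdx2 had 0 counts in all 9, which allows at most 0.0697 CPM in the shallowest library (3 counts, counting error only). The 8 epithelial genes summed to 8.11 to 16.2 CPM in CD43-KO and 9.01 to 15.6 CPM in Vec tumours, most of it Cdh1. Of these 8, Krt18 was at 0 in CD43-KO replicate 4, Krt20 in CD43-KO replicate 1, Krt8 in Vec replicate 1, and Vil1 in CD43-KO replicates 2 and 4 and Vec replicates 1 to 3. The sums of 7 fibroblast, 6 endothelial and 4 erythroid genes overlapped between the groups.

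Spn, the gene of CD43, checks the labels. It was at 25.6, 33.6, 31.2, 22.97 and 6.81 CPM in CD43-KO replicates 1 to 5, against 41.0, 43.7, 44.6 and 53.8 CPM in Vec replicates 1 to 4. Every CD43-KO tumour lay below every Vec tumour, as was the case for 3.5% of all names tested. Spn RNA was present in all 9. The log2 fold change was -0.93 ± 0.36 (SE, edgeR adjusted p = 0.280), and the two-sided exact permutation p was 0.00794, the smallest that 5 against 4 tumours allow.

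Moesin was the most abundant ERM transcript in these tumours. To compare genes, CPM was divided by the coding length in kilobases of the longest coding transcript. Msn stood at 590 ± 58.7 in CD43-KO and 557 ± 17.3 CPM per coding kb in Vec tumours (SD, n = 5 and 4), a level above that of 98.1% of 14260 coding genes. Below it, mean CPM per coding kb in CD43-KO tumours was 268 for Ezr, 198 for Cd44, 104 for Rdx, 65.4 for Slc9a3r1 and 34.2 for Nf2. In Vec tumours it was 260.1 for Ezr, 175 for Cd44, 105 for Rdx, 58.5 for Slc9a3r1 and 27.6 for Nf2. This order held in all 9 tumours. Between neighbours, only the ranges of Ezr (lowest 213 CPM per coding kb) and Cd44 (highest 220.5) overlapped over the 9 tumours. With the length of all annotated exons in place of the coding length, Msn exceeded Ezr in 7 of 9 tumours and Rdx exceeded Slc9a3r1 in 8 of 9, so these neighbours are not separated under both lengths.

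None of the 6 transcripts was called different between the groups by edgeR's quasi-likelihood test. That test called 0% of the 18243 names at an adjusted p of 0.05, so the absence of calls is not particular to the 6. Unadjusted edgeR p was under 0.05 for 0 of the 6, where 15.4% of all names were under it (7.75% higher and 7.63% lower). DESeq2 called 0 of the 6, where it called 3.66% of all genes it tested (1.48% higher and 2.18% lower). Limma voom with sample quality weights called 0 of the 6, where it called 2.72% of all names, and 2 of the 6 (Slc9a3r1 and Cd44) were under 0.05 with it before adjustment, where 23.8% of all names were. Of the 6, 5 had a log2 fold change above 0, as did 54.04% of all names tested, and the median of the 6 was 0.12, against 0.03 over all genes tested. No member separated the groups without overlap, where 5.59% of all names did.

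**Figure D1:**
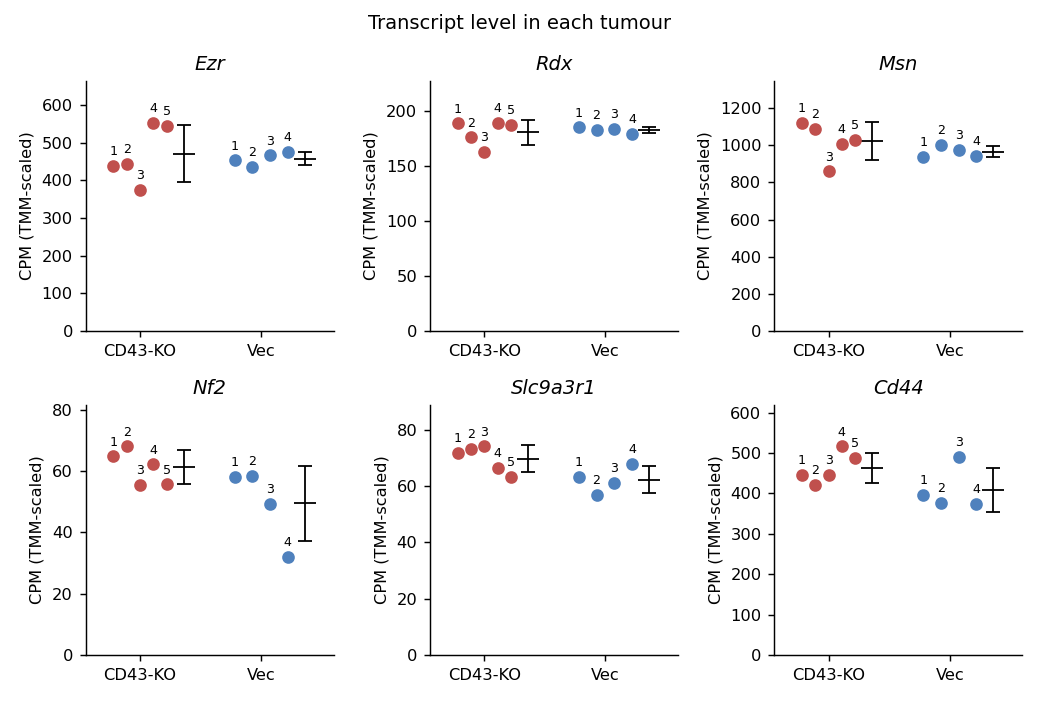
TMM-scaled CPM (vertical axes, from 0) of the 6 transcripts in 5 CD43-KO tumours (red) and 4 Vec tumours (blue), with the replicate number beside each point and the mean and SD as a bar on the right of each group. The groups overlap in all 6 panels, and the lowest Ezr, Rdx and Msn values belong to CD43-KO replicate 3.

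Ezrin is the ERM protein best known from the microvilli of epithelia. Ezr was at 438, 444, 375, 552 and 543 CPM in CD43-KO replicates 1 to 5, against 452.5, 435, 466 and 476 CPM in Vec replicates 1 to 4. CD43-KO replicates 4 and 5 lay above every Vec tumour and CD43-KO replicate 3 lay below every Vec tumour, so the CD43-KO group enclosed the Vec group. The means were 470.5 ± 75.6 CPM in CD43-KO and 457 ± 17.8 CPM in Vec tumours (SD, n = 5 and 4). The log2 fold change was 0.04 ± 0.12 (SE), with a 95% interval of -0.23 to 0.31 (edgeR adjusted p = 0.887, two-sided exact permutation p = 0.802). It was below 0 without CD43-KO replicate 4 (-0.02) or 5 (-0.01).

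Radixin is named for its place at adherens junctions and is the main ERM protein of liver cells. Rdx was at 189, 176, 163, 189.7 and 187 CPM in CD43-KO replicates 1 to 5, against 185, 183, 184 and 179.5 CPM in Vec replicates 1 to 4. CD43-KO replicates 1, 4 and 5 lay slightly above every Vec tumour, and replicates 2 and 3 below. The means were 181 ± 11.5 CPM in CD43-KO and 183 ± 2.56 CPM in Vec tumours (log2 fold change -0.02 ± 0.08 SE, 95% interval -0.18 to 0.15, edgeR adjusted p = 0.936). The sign turned to 0.07 when libraries were scaled by their totals alone, to 0.003 with limma voom and to 0.01 without CD43-KO replicate 3. Its level was the least variable of the 6. The coefficient of variation was 6.36% in CD43-KO and 1.40% in Vec tumours, and 99.75% of the 3949 names at or above the mean CPM of the lowest member varied more between Vec tumours and 83.8% more between CD43-KO tumours.

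Moesin is the main ERM protein of leukocytes and of endothelium. Msn was at 1121, 1089, 859, 1007 and 1029 CPM in CD43-KO replicates 1 to 5, against 937, 1001, 975 and 943 CPM in Vec replicates 1 to 4. Of the CD43-KO tumours, 4 lay above every Vec tumour and replicate 3 lay below every one. The means were 1021 ± 102 CPM in CD43-KO and 964 ± 29.9 CPM in Vec tumours, with a log2 fold change of 0.08 ± 0.10 (SE, 95% interval -0.13 to 0.30, edgeR adjusted p = 0.695, exact permutation p = 0.294). Without CD43-KO replicate 3, the tumour with the high muscle and fat transcripts, the groups no longer overlapped. It was the only CD43-KO tumour not above every Vec tumour, so leaving it out fixed the separation in advance. The exact permutation p of 0.0286, the smallest that 4 against 4 tumours allow, follows from that choice and adds no support. The difference of means was then 97.4 CPM, with a log2 fold change of 0.13 that edgeR did not call. What muscle and fat RNA contributed to the low Msn value of CD43-KO replicate 3 was not tested.

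Within the ERM sum, the ranges of the shares of all 3 genes overlapped between the groups. Per coding kb, Msn made up 61.4 ± 2.97% in CD43-KO and 60.4 ± 1.24% in Vec tumours, with SD over 5 and 4 tumours. Ezr made up 27.8 ± 2.95% in CD43-KO and 28.2 ± 1.21% in Vec tumours, and Rdx 10.8 ± 0.493% in CD43-KO and 11.35 ± 0.248% in Vec tumours. Per length of all exons, the Msn share was 47.1% in CD43-KO and 46.1% in Vec tumours. On that scale Ezr exceeded Msn in CD43-KO replicates 4 (45.6% against 43.2%) and 5 (44.8% against 44.2%). The size of the ratio of Msn to Ezr thus depends on the length used. The ratio of Msn to Ezr per coding kb was 2.60, 2.49, 2.33, 1.85 and 1.925 in CD43-KO replicates 1 to 5, against 2.103, 2.34, 2.12 and 2.01 in Vec replicates 1 to 4. CD43-KO replicates 1 and 2 thus lay above every Vec tumour and replicates 4 and 5 below every one. Replicates 4 and 5 were also the CD43-KO tumours with the lowest leukocyte sums; what leukocyte RNA contributed to the ratio was not tested.

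**Figure D2:**
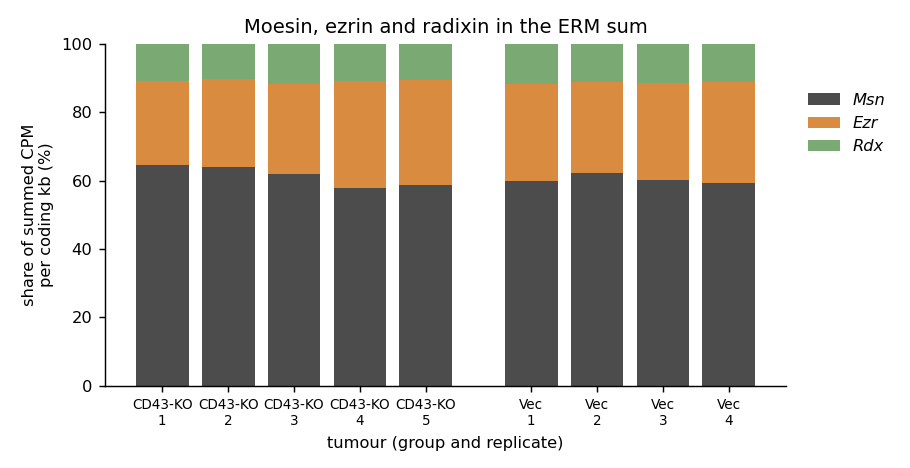
Share of Msn, Ezr and Rdx in their summed CPM per coding kb (vertical axis, percent) in each tumour, CD43-KO tumours on the left and Vec tumours on the right. Msn holds between 57.9% and 64.5% in CD43-KO and between 59.4% and 62.2% in Vec tumours.

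Merlin, the product of Nf2, restrains growth at cell contacts. Nf2 was at 64.7, 68.0, 55.4, 62.1 and 55.6 CPM in CD43-KO replicates 1 to 5, against 57.95, 58.4, 49.3 and 32.1 CPM in Vec replicates 1 to 4. CD43-KO replicates 1, 2 and 4 lay above every Vec tumour, and Vec replicate 4 lay below all other tumours. The means were 61.2 ± 5.58 CPM in CD43-KO and 49.4 ± 12.3 CPM in Vec tumours, a log2 fold change of 0.31 ± 0.165 (SE, 95% interval -0.06 to 0.67, edgeR adjusted p = 0.389, exact permutation p = 0.0794). A change at least as large was seen in 35.4% of all names tested. Without Vec replicate 4 the log2 fold change was 0.14.

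NHERF1 was first described as a regulator of the sodium-proton exchanger NHE3, and its carboxy-terminal tail binds the FERM domain of ERM proteins. Slc9a3r1 was at 71.8, 73.1, 74.0, 66.4 and 63.1 CPM in CD43-KO replicates 1 to 5, against 63.2, 56.7, 61.2 and 67.9 CPM in Vec replicates 1 to 4. The first 3 of the CD43-KO tumours exceeded all Vec tumours, while replicates 4 and 5 lay within the Vec range. The means were 69.7 ± 4.73 CPM in CD43-KO and 62.2 ± 4.65 CPM in Vec tumours, a log2 fold change of 0.16 ± 0.09 (SE, 95% interval -0.03 to 0.35, edgeR adjusted p = 0.383, exact permutation p = 0.0635). Its limma voom p was 0.0198 before adjustment (adjusted p = 0.135). The 3 CD43-KO tumours with the highest Slc9a3r1 levels were also those with the highest leukocyte sums; what leukocyte RNA contributed was not tested.

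CD44 is the main receptor for hyaluronan and is carried by carcinoma cells, fibroblasts and leukocytes alike. Cd44 was at 445, 421, 446, 516 and 487 CPM in CD43-KO replicates 1 to 5, against 397, 375, 489 and 373 CPM in Vec replicates 1 to 4. All CD43-KO tumours lay above Vec replicates 1, 2 and 4, and CD43-KO replicate 4 alone lay above Vec replicate 3 as well. The means were 463 ± 38.1 CPM in CD43-KO and 409 ± 54.7 CPM in Vec tumours, a log2 fold change of 0.18 ± 0.11 (SE, 95% interval -0.06 to 0.42, edgeR adjusted p = 0.435, exact permutation p = 0.103). Vec replicate 3 was the only Vec tumour within the CD43-KO range, so leaving it out fixed the separation of the groups in advance. The exact permutation p of 0.0179, the smallest that 5 against 3 tumours allow, follows from that choice and adds no support. The log2 fold change was then 0.27, which edgeR did not call. Counts per gene name cannot separate the standard form of CD44 from its splice variants.

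**Figure D3:**
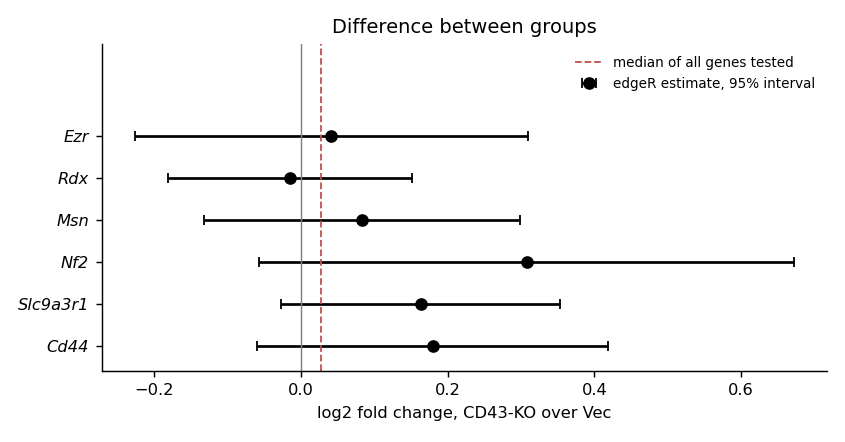
Log2 fold change of CD43-KO over Vec (horizontal axis) from edgeR with its 95% interval for the 6 transcripts, with the median of all genes tested (0.03) as a dashed line. All 6 intervals include 0, and the widest is that of Nf2, from -0.06 to 0.67.

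On a linear scale, the 95% intervals of the fold, CD43-KO over Vec, show how precisely each was measured. For the 3 ERM genes they were 0.855 to 1.24 (Ezr), 0.882 to 1.11 (Rdx) and 0.9125 to 1.23 (Msn). For the others they were 0.961 to 1.59 (Nf2), 0.981 to 1.28 (Slc9a3r1) and 0.959 to 1.34 (Cd44). In bulk tissue, a change in the number of cells of a type and a change in RNA per cell cannot be told apart.

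The members were also set against Spn and against Ptprc (CD45), a gene of all leukocytes, over the 9 tumours on the log2 CPM scale. Ptprc was at 85.3, 108.5, 148.4, 37.1 and 64.5 CPM in CD43-KO replicates 1 to 5, against 42.7, 50.6, 61.7 and 35.9 CPM in Vec replicates 1 to 4. Its groups overlapped, with CD43-KO replicates 1 to 3 and 5 above all Vec tumours. None of these 12 relations passed after Benjamini-Hochberg adjustment over the 12 (smallest adjusted p of Pearson's r = 0.267, exact permutation test over pairings). The groups hold 4 and 5 tumours, too few for a value within each. Relations over all 9 tumours therefore include any difference between the groups, and covariation apart from it was not tested. This limit weighs most on Spn, because its ranges in the 2 groups did not overlap. For Cd44 and Spn, r was -0.59 (p = 0.0705, adjusted 0.267) and rho was -0.60 (p = 0.0968, adjusted 0.388), both by exact permutation. Mean Cd44 was also higher in CD43-KO tumours, so these values cannot be told apart from the difference between the groups. Without the 2 tumours farthest from the median of Spn, r was -0.55, but the groups stayed apart in Spn. For Rdx and Ptprc, r was -0.66 (p = 0.043, adjusted 0.267) and rho was -0.37 (p = 0.336, adjusted 0.576), both by exact permutation. This r was -0.07 with library totals and turned to 0.405 without CD43-KO replicates 2 and 3, which lie farthest from the median of Ptprc, so it rests on them. For Ezr and Ptprc, r was -0.66 (p = 0.0539, adjusted 0.267) and rho was -0.62 (p = 0.0857, adjusted 0.388), both by exact permutation. The value was -0.39 without CD43-KO replicate 3 alone and -0.36 with library totals (exact permutation p = 0.354). Without CD43-KO replicates 2 and 3, r was -0.29, so this relation rests on them too. For Slc9a3r1 and Ptprc, r was 0.60 (p = 0.0891, adjusted 0.267) and rho was 0.48 (p = 0.194, adjusted 0.388), by exact permutation, and r was 0.12 without the same 2 tumours. For Msn and Ptprc, r was 0.02 over all 9 tumours (exact permutation p = 0.958, adjusted 0.958) and rho was 0.23 (exact permutation p = 0.552, adjusted 0.602). Without CD43-KO replicate 3, r was 0.83, and without CD43-KO replicates 2 and 3 it was 0.78, so this value turns on 1 tumour.

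**Figure D4:**
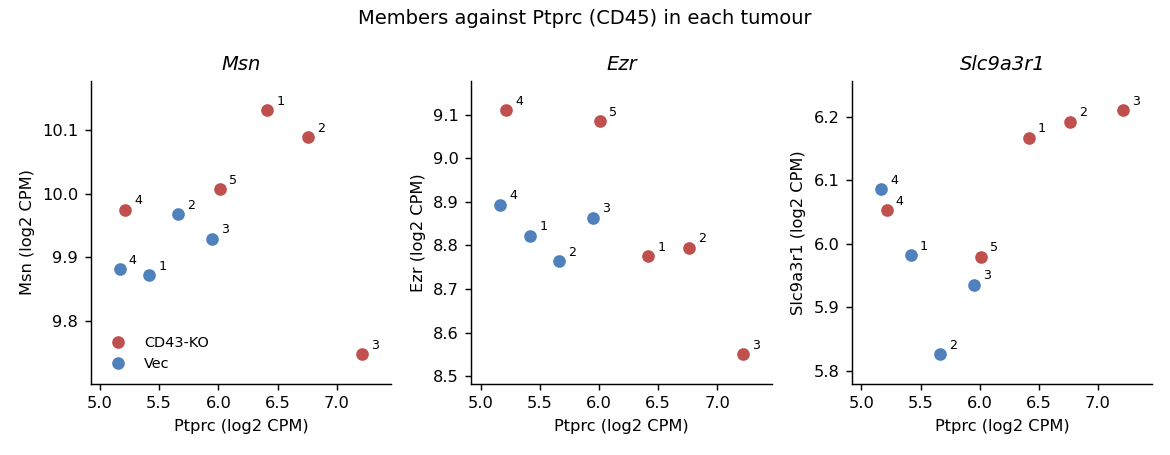
Levels of Msn, Ezr and Slc9a3r1 (vertical axes, log2 CPM) against Ptprc (horizontal axes, log2 CPM) in CD43-KO (red) and Vec (blue) tumours, with the replicate number beside each point. CD43-KO replicate 3 has the highest Ptprc level, at 148 CPM, and lies at the bottom of the Msn and Ezr panels and at the top of the Slc9a3r1 panel.

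For each member, the 3 named genes with the most similar pattern over the 9 tumours were taken by Pearson's r of log2 CPM among 12428 names. They were picked as the highest of many values over only 9 tumours, so they are descriptions. For Msn they were the amino acid transporter gene Slc7a5 (r = 0.96), the leucyl-tRNA synthetase gene Lars (0.94) and Nop14 (0.94), a gene of ribosome assembly. For Ezr they were the ubiquitin protease gene Usp10 (0.97), Ckap4 (0.96) and Reep4 (0.95). For Rdx they were Kbtbd2, Ankle2 (both 0.97) and Btbd3 (0.96). Nf2 was most like Mast3 (0.98), the histone acetyltransferase gene Ep300 (0.96) and Asb1 (0.96). Slc9a3r1 was most like the calcium channel gene Orai1 (0.94), the lymphoid transcription factor gene Pou2f2 (0.93) and the inducible nitric oxide synthase gene Nos2 (0.93). Cd44 was most like the mitotic checkpoint kinase gene Bub1 (0.98), Tedc1 (0.97) and Cip2a (0.97). No member was among the 3 names most like another member. By Pearson's r, the closest pair of members was Ezr and Rdx, with r = 0.75 over all 9 tumours and 0.475 without CD43-KO replicate 3. Without that tumour the closest pair was Ezr and Cd44 (0.68), and by Spearman's rho over all 9 it was Msn and Nf2 (0.72).

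Around the 6 members, 85 genes in 7 lists cover the regulators and partners of ERM proteins, merlin and CD44. Of these, 82 could be tested and edgeR called 0, with 11 higher and 5 lower before adjustment (19.5%, against 15.4% of all names). The 5 lower include Spn, the gene knocked out by design. DESeq2 called 4 higher and 2 lower among the 80 it gave an adjusted p (7.5%, against 3.66% over all genes). Limma voom called 5 of the 82, Rhoa and Sdc2 lower and Stk10, Cemip2 and Epb41 higher, where it called 2.72% of all names. It did not call Icam1 (limma voom adjusted p = 0.119) or Stk4 (limma voom adjusted p = 0.0657), which DESeq2 called. The lists were chosen with earlier results of these data known, so these shares are descriptions and no test of the lists. The median log2 fold change of the 82 was 0.04, against 0.03 over all genes. The counts above 0 in each list stand beside 54.04% of all names tested.

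The regulators upstream of ERM proteins held the lower gene Rhoa and the higher gene Stk10, both by DESeq2. Rhoa encodes the GTPase whose kinases help to activate ERM proteins. It was at 568, 589.9, 573, 612 and 562 CPM in CD43-KO replicates 1 to 5, against 759, 780.5, 656 and 975 CPM in Vec replicates 1 to 4. The groups did not overlap. Its DESeq2 log2 fold change was -0.46 ± 0.13 (SE, DESeq2 adjusted p = 0.0174, edgeR adjusted p = 0.191). Stk10 encodes LOK, the kinase that phosphorylates ERM proteins in lymphocytes. It was at 41.0, 41.2, 32.6, 38.8 and 35.3 CPM in CD43-KO replicates 1 to 5, against 28.9, 32.3, 28.15 and 27.5 CPM in Vec replicates 1 to 4. These groups did not overlap either, and of all names 2.08% were higher in this way and 3.5% lower. Its DESeq2 log2 fold change was 0.36 ± 0.11 (SE, DESeq2 adjusted p = 0.0285, edgeR adjusted p = 0.192). Each of these calls held in 4 of the 9 DESeq2 fits that left out 1 tumour. Rhoa lost it without CD43-KO replicate 1, 2 or 5 or Vec replicate 1 or 2. Stk10 lost it without CD43-KO replicate 1 or 2 or Vec replicate 1, 3 or 4. Over all genes, DESeq2 called 612 with all 9 tumours. Without CD43-KO replicate 1, 2 or 5 or Vec replicate 1, 2 or 4 it called only 195 to 469. A call lost in those fits, here or in the lists below, cannot be read as particular to the gene. Prkcq, a protein kinase C of T cells, averaged 2.92 CPM in CD43-KO and 0.986 CPM in Vec tumours and was not called. CD43-KO replicates 1 to 3, which had the highest leukocyte sums, were at 2.60, 3.45 and 6.41 CPM. Replicates 4 and 5 lay within the Vec range of 0.573 to 1.36 CPM. What leukocyte RNA contributed was not tested. Of the 12 genes tested in this list, 9 lay above 0 (median log2 fold change 0.11).

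Among 11 membrane partners of ERM proteins, DESeq2 called Sdc2 lower and Icam1 higher. Sdc2 encodes syndecan-2, a heparan sulfate proteoglycan whose tail binds ezrin. It was at 107, 83.7, 91.2, 101.5 and 107 CPM in CD43-KO replicates 1 to 5, against 169, 171.5, 123 and 144 CPM in Vec replicates 1 to 4. The groups did not overlap. Its DESeq2 log2 fold change was -0.64 ± 0.14 (SE, DESeq2 adjusted p = 0.000669, edgeR adjusted p = 0.135), and the call held in all 9 fits that left out 1 tumour. Icam1, an adhesion molecule of endothelium and inflamed tissue, was at 28.2, 34.3, 44.8, 13.2 and 10.7 CPM in CD43-KO replicates 1 to 5, against 8.46, 11.4, 12.8 and 12.9 CPM in Vec replicates 1 to 4. CD43-KO replicates 1 to 3, which had the highest leukocyte sums, were far above the rest; what leukocyte RNA contributed was not tested. Its DESeq2 log2 fold change was 1.19 ± 0.37 (SE, DESeq2 adjusted p = 0.0403, edgeR adjusted p = 0.246). The call held in 3 of 9 such fits, and was lost without CD43-KO replicate 1, 2 or 3 or Vec replicate 1, 2 or 4. Without CD43-KO replicate 3 the log2 fold change was 0.92 (DESeq2 adjusted p = 0.0599). Of the 11 partners, 8 lay above 0, with a median log2 fold change of 0.23, and Spn was 1 of the 3 below.

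Of 9 tested scaffolds and FERM relatives, 3 lay above 0 and 6 below (median log2 fold change -0.07), and edgeR and DESeq2 called none. Epb41l2, Epb41 and Epb41l1 are genes of the protein 4.1 family, which shares the FERM domain. Epb41l2 averaged 91.5 ± 13.1 CPM in CD43-KO and 121 ± 14.3 CPM in Vec tumours. Epb41 averaged 41.0 ± 4.26 CPM in CD43-KO and 33.3 ± 1.5 CPM in Vec tumours. Epb41l1 averaged 58.3 CPM in CD43-KO and 72.4 CPM in Vec tumours. Limma voom called Epb41 higher (limma voom adjusted p = 0.0388).

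In the merlin and Hippo core list, 10 of 15 genes lay above 0 (median log2 fold change 0.04), and Stk4 was called by DESeq2. Stk4 encodes MST1, the upstream kinase of the Hippo cascade. It was at 56.2, 55.7, 57.4, 49.3 and 52.6 CPM in CD43-KO replicates 1 to 5, against 46.9, 46.1, 41.5 and 38.1 CPM in Vec replicates 1 to 4. The groups did not overlap. Its DESeq2 log2 fold change was 0.32 ± 0.10 (SE, DESeq2 adjusted p = 0.030, edgeR adjusted p = 0.198). The call held only without CD43-KO replicate 3 or 4, in 2 of 9 fits that left out 1 tumour. Lats2, the kinase below it, averaged 43.2 CPM in CD43-KO and 36.2 CPM in Vec tumours. Pak1, a kinase that inactivates merlin, averaged 35.25 CPM in CD43-KO and 41.2 CPM in Vec tumours. Vec replicate 4 had the lowest Lats2 level (28.6 CPM) and the highest Pak1 level (49.2 CPM). Without it the edgeR log2 fold change of Lats2 was 0.15, against 0.255 with all 9 tumours. For Pak1 it was -0.14, against -0.23. Among the effectors and targets of YAP, 4 of 10 lay above 0 (median log2 fold change -0.12) and edgeR and DESeq2 called none. Wwtr1, which encodes the coactivator TAZ, averaged 114 CPM in CD43-KO and 150.0 CPM in Vec tumours. The target gene Ccn1 averaged 140.5 CPM in CD43-KO and 114 CPM in Vec tumours. The DNA-binding partner gene Tead4 averaged 17.0 CPM in CD43-KO and 13.7 CPM in Vec tumours.

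Around CD44, the ligand and hyaluronan list had 8 of 16 tested genes above 0 (median log2 fold change -0.06), with Cemip2 called by DESeq2. Cemip2 encodes a transmembrane protein that takes part in hyaluronan breakdown. It was at 21.3, 21.4, 21.4, 16.7 and 17.2 CPM in CD43-KO replicates 1 to 5, against 14.5, 13.9, 15.7 and 10.6 CPM in Vec replicates 1 to 4. The groups did not overlap. Its DESeq2 log2 fold change was 0.51 ± 0.15 (SE, DESeq2 adjusted p = 0.028, edgeR adjusted p = 0.193). The call held in 4 of 9 fits that left out 1 tumour, and was lost without CD43-KO replicate 1 or 2 or Vec replicate 1, 2 or 4. Stab1, a scavenger receptor of macrophages, averaged 106 CPM in CD43-KO and 72.2 CPM in Vec tumours. It was at 123.5, 132.3 and 119.6 CPM in CD43-KO replicates 1 to 3. CD43-KO replicates 4 and 5 lay within the Vec range of 60.85 to 82.76 CPM. The hyaluronidase gene Hyal1 averaged 8.36 CPM in CD43-KO and 6.18 CPM in Vec tumours. It was at 3.57 CPM in Vec replicate 4. Without that tumour its edgeR log2 fold change was 0.24, against 0.435 with all 9. Of the 9 genes for cleavage and splicing of CD44, 3 lay above 0 (median log2 fold change -0.06), and edgeR and DESeq2 called none. Adam17, a sheddase, averaged 76.75 CPM in CD43-KO and 64.9 CPM in Vec tumours. It was at 48.35 CPM in Vec replicate 4. Without that tumour its edgeR log2 fold change was 0.12, against 0.24 with all 9. The epithelial splicing regulator genes Esrp1 and Esrp2, which promote CD44 variant exons, were low and uneven, with between 0 and 89 counts of Esrp1 and between 0 and 53 counts of Esrp2 in a library. Esrp1 averaged 0.225 CPM in CD43-KO and 0.679 CPM in Vec tumours, and Esrp2 averaged 0.164 CPM in CD43-KO and 0.416 CPM in Vec tumours.

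**Figure D5:**
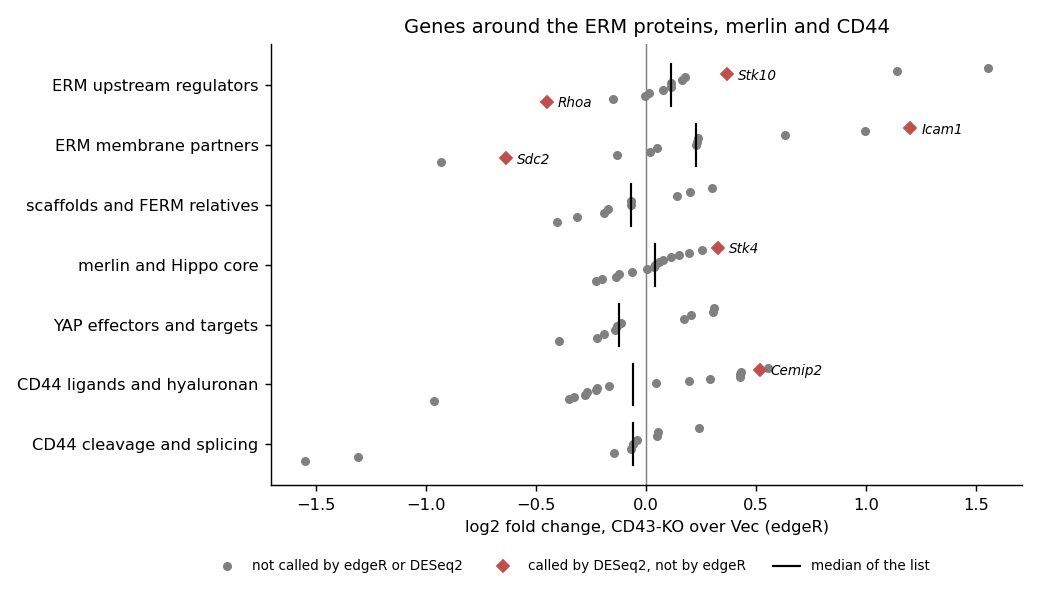
Log2 fold change of CD43-KO over Vec from edgeR (horizontal axis) for the tested genes of the 7 lists (rows), with the median of each list as a vertical bar. Red diamonds are the 6 genes called by DESeq2 and not by edgeR; Rhoa and Sdc2 lie below 0 and the other 4 above.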

How the data were processed

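The authors deposited 1 table per library of whole-number counts per gene name, unnormalized. HISAT2 2.1.0, StringTie 1.3.5, DESeq2 and the build GRCm38 are named, with no role, in the submitters' processing notes. No label states the counter, annotation, strand setting or filters. Groups came from the labels, and replicates were numbered in deposition order. R 4.3.3, edgeR 4.0.16, limma 3.58.1 and DESeq2 1.42.0 were used. Names were kept by filterByExpr (minimum count 10, total 15), libraries were TMM-scaled, and group was the only term in edgeR's robust quasi-likelihood test, with Benjamini-Hochberg adjustment over 18243 names. The SE is the log2 fold change over the square root of F. Exact permutation tests were two-sided over 126 splits (smallest p 0.00794). The fit was also run on simulated counts with the same spread for all names, below the common spread estimated from these data. That run checked the code and does not give error rates for these data. No libraries agreed within sampling noise (over 36 pairs, chi-square divided by its degrees of freedom was at least 35.3). Of 2346 names with a copy suffix, none was a member. The members and lists were chosen with earlier results of these data known. Named genes were the members, Spn, Ptprc, the 3 genes of smallest edgeR p per list and the 3 names most like each member with a mean of at least 1 CPM, without predicted names and pseudogenes. The values of 1 marker gene are not reported here.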

Additional observations from a re-analysis of the deposited data

Results flagged for a closer look

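Esrp1, an epithelial splicing regulator gene, was at 0.993 CPM in CD43-KO replicate 1, far from the other CD43-KO tumours, which had 0.0463, 0, 0 and 0.0845 CPM in replicates 2 to 5. In Vec tumours it was at 0.253, 0.0447, 0.775 and 1.64 CPM. It was the only value marked among 56 groups of 4 or 5 tumours examined for a single distant tumour, and chance marks about 1 in 20 such groups.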

How the results depend on the processing

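No setting made edgeR, DESeq2 or limma voom call any of the 6 members, and the smallest adjusted p over 96 alternatives was 0.135 (Slc9a3r1 with limma voom). Of these 96 log2 fold changes, 91 kept their sign. The 5 that did not were of Ezr (-0.022 to 0.107 when 1 tumour was left out) and of Rdx (-0.032 to 0.015 when 1 tumour was left out, 0.072 with library totals, 0.003 with limma voom). Library totals put the median of all genes at 0.11, against 0.03 with TMM. When 1 tumour was left out, differences of mean CPM ranged from -7.185 to 37.2 for Ezr, from -4.07 to 2.65 for Rdx, from 31.8 to 97.4 for Msn and from 40.9 to 81.02 for Cd44. They ranged from 5.975 to 14.75 for Nf2 and from 5.58 to 9.32 for Slc9a3r1. With library totals they were 42.4 for Ezr (13.3 with TMM), 9.06 for Rdx, 117.9 for Msn (56.9 with TMM) and 11.4 for Slc9a3r1 (exact permutation p = 0.0159 for Slc9a3r1). Of the 82 pathway genes edgeR called 0, DESeq2 6 and limma voom 5. Over all genes, edgeR called 0%, DESeq2 3.66% and limma voom 2.72%. DESeq2 without 1 tumour, chosen after the data were seen, called between 1 and 13 of the 82 and none of the members. Over all genes, these fits called between 195 (without Vec replicate 1) and 1204 (without CD43-KO replicate 3). Esrp2 turned to 1.025 (log2) with limma voom. The cause of these differences was not tested. Per length of all exons, the shares in CD43-KO tumours were 47.1% for Msn, 41.5% for Ezr and 11.4% for Rdx. No paired analysis was possible because the labels give no replicate numbers shared between the groups.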

Other observations

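Spp1, Has1 and Vcan, from the ligand and hyaluronan list, were chosen for description after their values were seen. Spp1, which encodes osteopontin, was at 652.5, 511.5, 1122, 408 and 608 CPM in CD43-KO replicates 1 to 5, against 480.5, 471, 751 and 454.5 CPM in Vec replicates 1 to 4. Has1, a hyaluronan synthase gene, was at 86.5, 80.6, 74.6, 131 and 128 CPM in CD43-KO replicates 1 to 5, against 135, 109.7, 129.7 and 108.0 CPM in Vec replicates 1 to 4. Vcan was at 195.5, 176.2, 150.8, 219.1 and 229.5 CPM in CD43-KO replicates 1 to 5. In Vec replicates 1 to 4 Vcan was at 270.6, 241.7, 234.2 and 158.7 CPM. Its limma voom p was 0.0406 before adjustment (limma voom adjusted p = 0.189). The groups overlapped for each of these genes, and edgeR called none.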
